A study of Homo sapiens with 4 samples.

Results

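The Notch receptors, their ligands and their immediate target genes were followed on 4 single-colour Agilent arrays labelled as MCF-10A cells, a line of normal human mammary epithelial cells. The set held 10 genes of the 20501 that a probe could be tied to through its RefSeq transcript accession. They were the receptors NOTCH1, NOTCH2 and NOTCH3, the ligands JAG1, JAG2, DLL1 and DLL3, and the targets HES1, HEY1 and HEY2. All 10 were on the array, at 12 probes, with a pair of probes each for NOTCH1 and NOTCH2.

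The cells had received 10 µM of a peptide that the labels call stapled-peptide, or of one called non-specific stapled-peptide, and RNA was taken at 24 h and at 48 h. A stapled peptide is a short peptide whose helix is held in shape by a covalent bridge between side chains, and the study made such peptides to block the binding of the proteins BIG3 and PHB2. Each peptide and time had 1 array and no array of untreated cells was among them, so the differences within a time have no test and no p-value. The labels mark the non-specific arrays as control and do not tie either name to a numbered peptide of the study, so values are given by label. The paper describes the arrays as comparing a peptide without significant effect on MCF-10A growth with another that reduced it. The question of the design was which genes differed between the peptides at each time.

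Notch receptors are cell-surface proteins that are cut when a ligand on a neighbouring cell pulls on them. The freed intracellular part enters the nucleus, joins the DNA-binding protein RBPJ and switches on genes such as those of the HES and HEY families, which encode repressors. In the mammary gland the pathway is known for its part in the choice between basal and luminal epithelial fates.

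Each value is the log2 of the background-subtracted spot signal, quantile-normalized over the 4 arrays. Probe signals of different genes were not compared with each other, because probes bind with different strength. Scanner error is the error the scanner software gave for the signals of both arrays, carried to the log2 scale, and it does not cover the spread between cultures. For a probe that was dim on 1 array of a comparison and well above background on the other, the difference is a bound, counted from the lowest well-above-background signal of the dim array. That signal was 3.94 for stapled-peptide and 3.78 for its non-specific counterpart at 24 h, and 3.89 and 3.57 in the same order at 48 h.

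The array labelled non-specific stapled-peptide at 48 h stood apart from the other 3. Its probes correlated with theirs at r of 0.799 to 0.807, whereas the other 3 correlated among themselves at 0.976 to 0.978. These values are across probes, which are not independent replicates. The 8 basal epithelial markers that define MCF-10A summed to a signal of 85508 to 87893 on the other 3 arrays and to 507 here, and all 8 were at least 2-fold lower than with stapled-peptide at 48 h. KRT5, a basal keratin, lay at 14.65, 14.54 and 14.59 on those arrays and at 5.02 here. The 7 neural and neuroendocrine markers summed to 59.8 to 77.2 on the other 3 arrays, with at most 1 well above background, and to 26710 here, with all 7 well above background. Most of the sum here was UCHL1, at 14.25. The 6 genes listed for embryonic kidney lines summed to 776 to 819 and here to 21819, with 3 or 4 and here 3 well above background. LIN28B was at least 8.98, CKB 6.13 and HOXA9 2.88 higher than with stapled-peptide at 48 h, but another HOXA9 probe was at 0.03. Of the others, PHOX2A was dim on both arrays. PAX2 and L1CAM were dim here at the probes used for the counts, with bounds of −0.59 and −0.58. Another probe of each was well above background here and dim with stapled-peptide at 48 h, at least 3.89 higher for PAX2 and 0.11 for L1CAM. This list and UCHL1 were taken from an earlier account of these arrays, so their signals are not independent evidence about this array. Luminal markers summed to 30572 to 32293 and here to 6561, with 6 of 7 well above background throughout and ELF5 dim. Of these 6, KRT18 and KRT8 were 2.34 and 2.79 lower on the log2 scale, FOXA1 was 1.31 higher and 3 were within 2-fold, with a median of −0.23. The 6 fibroblast markers summed to 29576 to 32058 and here to 184, with 4 and here 3 well above background. Nearly all of that sum was DCN, at −9.15, while COL1A1 differed by 0.13 and LUM by at least 0.19. Endothelial markers summed to 677 to 759 and here to 52.4, with 1 of 5 well above background here and PECAM1, KDR, TEK and TIE1 dim. Leukocyte markers summed to 91.8 to 116 and here to 50.2. Such sums add probes of different strength and serve only to set arrays side by side. The basal markers go against the label of this array, and whether its RNA came from MCF-10A cells cannot be told from these data. The part of these marker differences in the results on the Notch genes was not tested. Every difference below at 48 h between the peptides rests on this array, and the values without it are those of the comparison at 24 h and of stapled-peptide between the times. As the RNA came from whole cultures, fewer cells of a type and less RNA per cell cannot be told apart.

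At 48 h, 7 of the 10 Notch genes were at least 2-fold higher with non-specific stapled-peptide than with stapled-peptide, 2 were at least 2-fold lower and 1 was within 2-fold. Among all genes with a difference, 21.2% were at least 2-fold higher and 19.8% at least 2-fold lower. The median difference of the 10 was 1.99 on the log2 scale, against 0.03 over all 17112 genes. The higher genes were NOTCH3, JAG2, DLL1, DLL3, HES1, HEY1 and HEY2, and the lower ones NOTCH2 and JAG1. For DLL3, HEY1 and HEY2 the values are bounds, because their probes were dim with stapled-peptide. With probes dim on either array left out, 7 genes remained, of which 4 were at least 2-fold higher and 2 lower, and the median was 1.17. The shares of all genes above include bounds, as 14443 of the 17112 genes were measured on both arrays. Under this filter, 4581 probes of the whole array were at least 2-fold higher and 4626 lower. At 24 h, HEY1 and HEY2 had no difference, DLL3 had a bound, and 0 of the 8 genes with a difference passed 2-fold in either direction, beside 0.838% of all genes higher and 1.04% lower.

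The peptides were also compared over both times in a limma fit of peptide plus time, which pairs the arrays by time and leaves 1 residual degree of freedom. Among 37761 probes, 0 (0%) had an adjusted p under 0.05 (Benjamini-Hochberg), against 540 at an unadjusted p under 0.05. For the 10 Notch genes the adjusted p ran from 0.926 to 0.929, and 0 had an unadjusted p under 0.05. In this fit the residual is the change of the peptide difference between 24 h and 48 h. A difference present at 48 h alone adds to that residual, so the fit could hardly call it. Its p-values therefore decide nothing about the differences at 48 h.

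**Figure D1:**
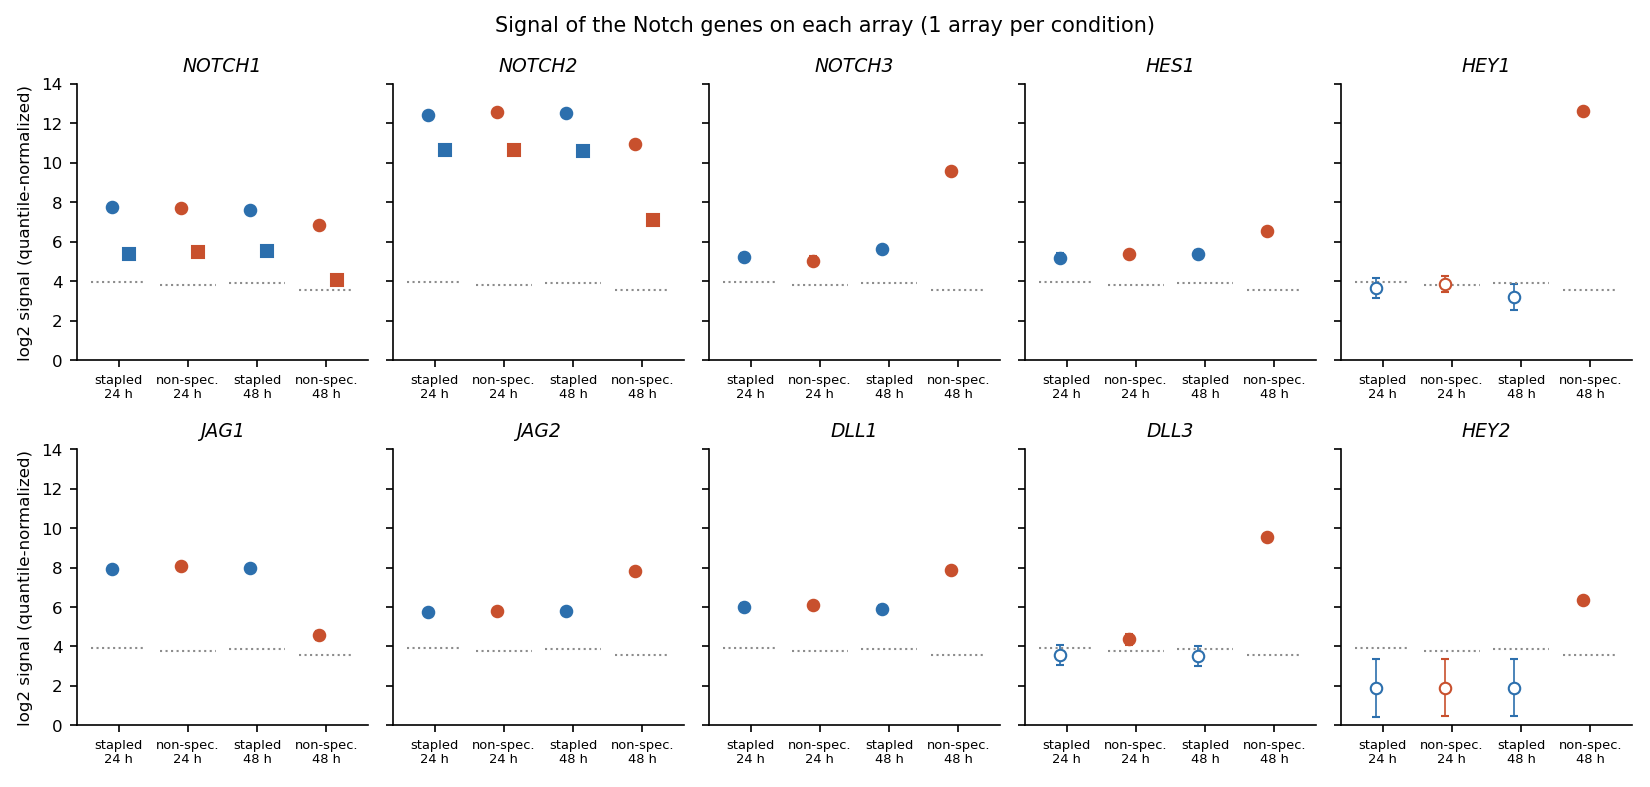
Log2 signal, quantile-normalized, of each Notch gene on each of the 4 arrays, with stapled-peptide in blue and non-specific stapled-peptide in orange; squares are the second probe of NOTCH1 and NOTCH2, open circles are probes not well above background, dotted lines are the lowest well-above-background signal of the array, and bars are scanner error where it exceeds the symbol. Among the 7 genes well above background on all 4 arrays, the 3 arrays other than the non-specific one at 48 h span 0.05 to 0.58, and that array lies 0.73 (NOTCH1) to 4.0 (NOTCH3) from the nearest of them.

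The receptors differed in direction. NOTCH1, a receptor with a known part in many epithelia and in T cells, had a probe at 7.76 and 7.71 at 24 h, for stapled-peptide and then its non-specific counterpart, and at 7.59 and 6.86 at 48 h. The 48 h difference was −0.73 ± 0.21 (scanner error), which is 1.65-fold lower. Its other probe, spotted 10 times, lay at 5.39 ± 0.22 (SD of 10 spots), 5.46 ± 0.31 and 5.51 ± 0.25 on the other 3 arrays, in the same order, and at 4.07 ± 0.29 (9 spots) with non-specific stapled-peptide at 48 h. That difference was −1.43, or 2.70-fold lower, so the probes of NOTCH1 shared the direction and lay on different sides of 2-fold. With the mean over both probes the difference was −1.08.

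NOTCH2, a receptor closely related to NOTCH1, had its brighter probe at 12.45 and 12.60 at 24 h and at 12.54 and 10.98 at 48 h, with stapled-peptide first at each time. The 48 h difference was −1.56 ± 0.20, which is 2.96-fold lower. A probe assigned to another NOTCH2 transcript lay at 10.65 and 10.66 at 24 h and at 10.62 and 7.12 at 48 h, a difference of −3.50, or 11.3-fold. The array with non-specific stapled-peptide at 48 h was thus the lowest at each probe, and the sizes differed. NOTCH2 shares nearly identical stretches with its partial copies, the NOTCH2NL genes, and the signal of either probe could include their transcripts, which was not tested.

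NOTCH3, a receptor best known from vascular smooth muscle, ran the other way. It lay at 5.22 and 5.03 at 24 h and at 5.61 and 9.61 at 48 h. The 48 h difference was 4.0 ± 0.24, or 16.0-fold higher, and the other 3 arrays spanned 0.58. NOTCH4, the receptor outside the set, was not well above background with stapled-peptide at either time, at 3.11 and 3.53. With the non-specific peptide it lay at 4.40 at 24 h and 5.39 at 48 h, at least 1.51 higher at 48 h, or 0.51 with a model-based background correction (normexp).

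Among the ligands, JAG1 was lower and the other ligands of the set were higher. JAG1, a Jagged-type ligand of Notch receptors, lay at 7.94 and 8.09 at 24 h and at 7.98 and 4.58 at 48 h. Its 48 h difference was −3.40 ± 0.27, or 10.6-fold lower. JAG2, the second Jagged-type ligand, has a probe spotted 10 times, at 5.76 ± 0.18 and 5.78 ± 0.14 at 24 h and at 5.81 ± 0.30 and 7.83 ± 0.08 at 48 h (SD over 9 or 10 spots). The difference of 2.02, or 4.05-fold higher, stands beside a spread between spots that covers technical error on 1 array only. On these arrays JAG1 and JAG2 differed in opposite directions.

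The Delta-type ligands were both higher. DLL1, which activates Notch receptors on neighbouring cells, lay at 6.01 and 6.09 at 24 h and at 5.92 and 7.87 at 48 h, and differed at 48 h by 1.95 ± 0.22, or 3.88-fold. DLL3, a divergent family member that does not activate the receptors from neighbouring cells and is found in neuroendocrine cells, was not well above background with stapled-peptide, at 3.58 at 24 h and 3.51 at 48 h. With non-specific stapled-peptide it lay at 4.36 at 24 h and 9.54 at 48 h, at least 0.42 and at least 5.66 higher than with stapled-peptide, the second being at least 50.4-fold. Between the times with non-specific stapled-peptide, where its probe was measured on both arrays, DLL3 was 5.19 higher at 48 h.

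Of the ligand-like genes outside the set, DLK2, a membrane protein with Delta-like repeats, lay at 11.52 and 11.42 at 24 h and at 11.42 and 9.64 at 48 h, 1.78 below stapled-peptide on the log2 scale. DLK1 was within 2-fold at 0.22, and DLL4 was not well above background on any array.

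The targets of the set were all higher at 48 h. HES1, a repressor that Notch switches on in many tissues, lay at 5.20 and 5.36 at 24 h and at 5.38 and 6.55 at 48 h. The difference was 1.17 ± 0.25, or 2.25-fold, and with another, model-based background correction (normexp) it was 0.54, within 2-fold.

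HEY1, a related repressor, was not well above background on 3 of the 4 arrays, at 3.65 and 3.87 at 24 h and at 3.19 with stapled-peptide at 48 h. With non-specific stapled-peptide at 48 h it lay at 12.64, a difference of at least 8.76, or at least 433-fold, which was the largest of the 10 genes. HEY2 was likewise dim on those 3 arrays, at 1.90, 1.90 and 1.91, and lay at 6.37 with non-specific stapled-peptide at 48 h. Its bound was at least 2.48, or at least 5.59-fold, and normexp gave 0.97. The probes of HEY1 and HEY2 could enter a comparison only through the array on which they were bright.

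The sizes of these differences depend on the background correction. With normexp, the 48 h difference was 2.77 for NOTCH3, −1.90 for JAG1, 1.27 for JAG2, 1.23 for DLL1, 3.35 for DLL3 and 6.21 for HEY1, so that the bounds above hold for the signal as extracted and not for this alternative. NOTCH1 and NOTCH2 were at −0.51 and −1.56 with normexp, and NOTCH2 was at −2.53 with the mean over its probes.

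**Figure D2:**
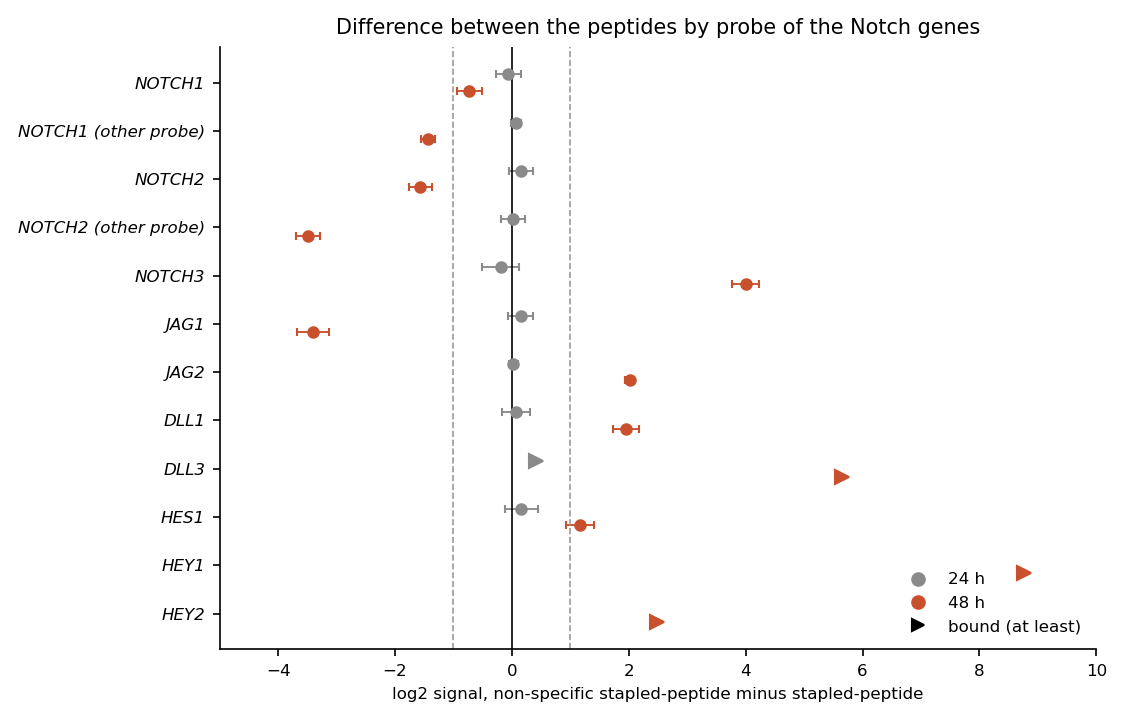
Difference in log2 signal, non-specific stapled-peptide minus stapled-peptide, for each probe of the Notch genes at 24 h (grey) and 48 h (orange); bars are scanner error, for probes with 10 spots that of their mean, triangles are bounds, and dashed lines mark 2-fold. At 24 h the measured probes lie between −0.19 and 0.16 and DLL3 has a bound of at least 0.42, and at 48 h the probes reach from −3.50 for a NOTCH2 probe to at least 8.76 for HEY1.

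Within the peptides over time, the 48 h pattern lay on the same array. With non-specific stapled-peptide, 7 Notch genes were at least 2-fold higher at 48 h than at 24 h and 2 lower, beside 21.3% and 20.1% of all genes, with a median of 1.91. This comparison shares the array at 48 h with the comparison between the peptides. The values were −0.85 for NOTCH1, −1.62 for NOTCH2, 4.58 for NOTCH3 and −3.52 for JAG1. With stapled-peptide, 0 of the 7 Notch genes with a difference passed 2-fold between 24 h and 48 h, beside 0.923% of all genes higher and 1.13% lower. Their differences ran from −0.18 for NOTCH1 to 0.39 for NOTCH3, with a median of 0.05. Over all probes, the SD of the log2 differences was 1.55 between the peptides at 48 h, 0.43 at 24 h and 0.44 for stapled-peptide over time.

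The machinery that makes, cuts and reads the receptors was taken from lists of 64 other Notch pathway genes, all with a probe. At 48 h, 9 of them were at least 2-fold higher with non-specific stapled-peptide, 15 lower and 30 within 2-fold, and 10 were dim on both arrays or had a bound that left no fold, with a median of −0.28. At 24 h, 0 were higher, 1 was lower and 51 were within 2-fold. The shares of all genes at these times were 21.2% higher and 19.8% lower at 48 h, and 0.838% and 1.04% at 24 h.

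**Figure D3:**
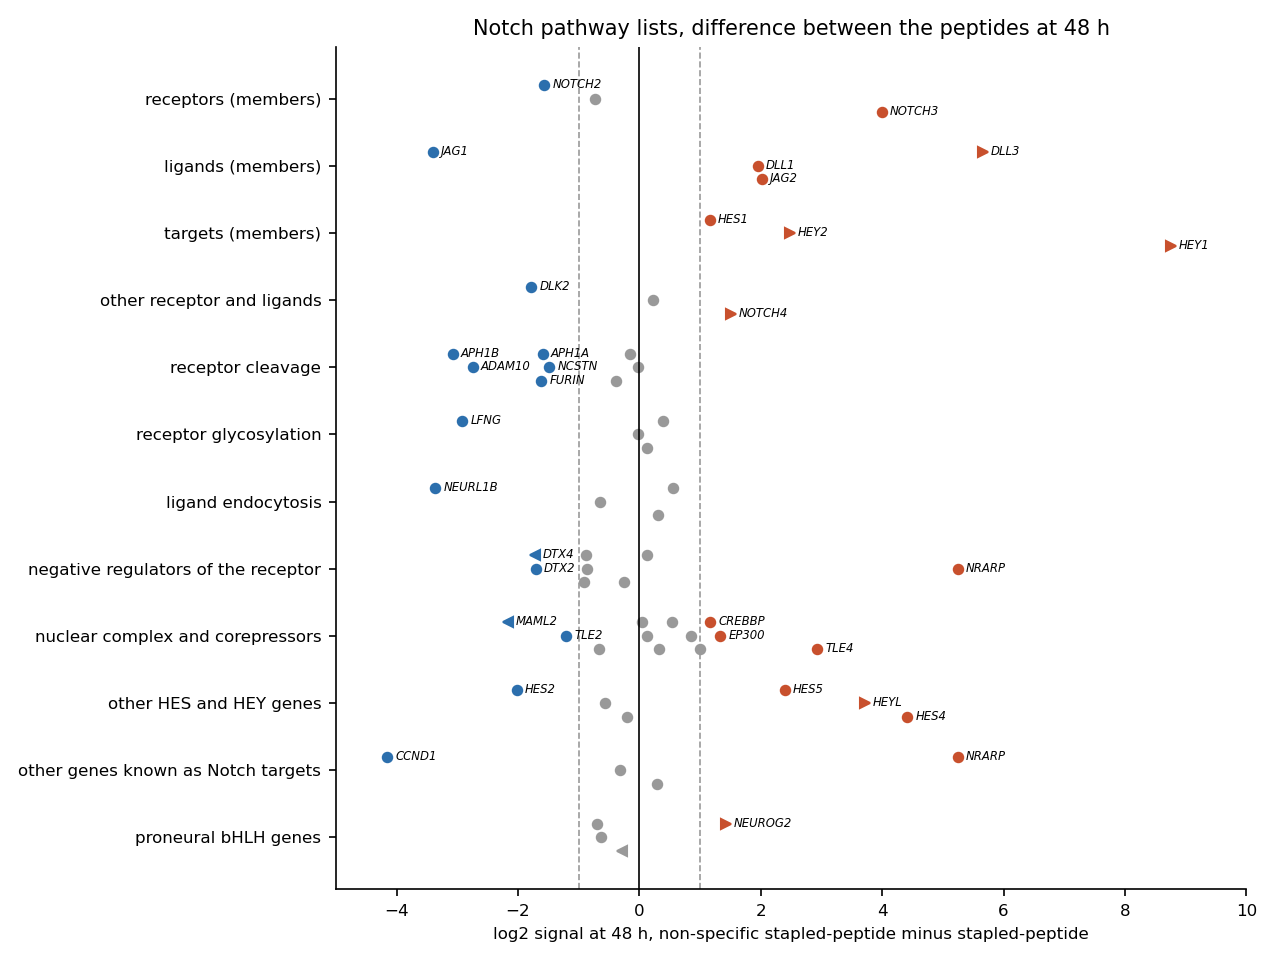
Difference in log2 signal at 48 h, non-specific stapled-peptide minus stapled-peptide, for the genes of the Notch pathway lists with a difference that are reported here; each point is 1 gene, triangles are bounds, orange and blue mark at least 2-fold higher and lower, dashed lines mark 2-fold, and NRARP stands in both lists that hold it. The genes of receptor cleavage lie at or below 0, from −3.07 for APH1B to −0.02 for PSEN2, and the HES and HEY genes reach furthest to the right, up to at least 8.76 for HEY1.

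Genes of receptor cleavage were lower or within 2-fold, with 5 of 9 at least 2-fold lower and 0 higher, beside 19.8% and 21.2% of all genes. ADAM10, the protease that makes the first ligand-driven cut, lay at 8.04 and 8.13 at 24 h and at 8.21 and 5.46 at 48 h, a difference of −2.74, or −1.63 with normexp, and its other probe gave −2.52. Of the 6 subunits of gamma-secretase, which makes the cut inside the membrane, 3 were at least 2-fold lower.

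These 3 were APH1B, NCSTN and APH1A. APH1B lay at 9.93, 9.84 and 9.94 on the other 3 arrays and at 6.87 with non-specific stapled-peptide at 48 h, a difference of −3.07. NCSTN, the subunit that receives the substrate, differed by −1.48. APH1A was the pathway gene that also differed by at least 2-fold at 24 h. It lay at 9.63 and 8.61 at 24 h and at 9.52 and 7.93 at 48 h, stapled-peptide first, so both arrays with non-specific stapled-peptide were low. Its differences were −1.02 at 24 h and −1.59 at 48 h, and its other probe gave −1.09 and −1.66. PSEN2, a catalytic subunit, was within 2-fold at −0.02, as was the sheddase ADAM17 at −0.16. FURIN, a protease that cuts the receptor on its way to the surface, differed by −1.62, and by −0.83 with normexp.

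Among the genes of receptor glycosylation, 1 of the 4 with a difference at 48 h was at least 2-fold lower and 0 were higher. For ligand endocytosis, 1 of 4 was lower and 0 were higher. The shares of all genes were 19.8% lower and 21.2% higher. LFNG, a fringe enzyme that adds sugar to the receptor, lay at 8.24 and 7.88 at 24 h and at 8.20 and 5.28 at 48 h. Its difference was −2.92, or −1.96 with normexp, and −2.04 at its other probe, while 3 of the 5 glycosylation genes were within 2-fold and MFNG was dim. NEURL1B, a ubiquitin ligase of the family that drives ligand endocytosis, lay at 9.47 and 9.54 at 24 h and at 9.37 and 6.00 at 48 h, a difference of −3.36, or −2.51 with normexp, with the other 3 genes of that list within 2-fold.

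Of 9 negative regulators of the receptor, 8 had a difference at 48 h. Among these, 1 was at least 2-fold higher, NRARP, and 2 were lower, beside 21.2% and 19.8% of all genes. NRARP, a Notch target whose protein dampens the nuclear complex, lay at 6.10 and 6.30 at 24 h and at 6.28 and 11.52 at 48 h. Its difference was 5.24, or 37.9-fold, and 4.27 with normexp, whereas its other probe was not well above background on any array. DTX2, a Deltex-family ubiquitin ligase, was −1.71 and gave −1.52 and −1.71 at other probes, a further probe being dim at 48 h, and DTX4 was dim with non-specific stapled-peptide at 48 h, for a bound of −1.73, or −0.49 with normexp.

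In the nuclear complex, RBPJ itself was within 2-fold. It lay at 11.01 and 11.27 at 24 h and at 11.03 and 11.07 at 48 h, a difference of 0.04. The acetyltransferases EP300 and CREBBP, which the complex recruits, were 1.34 and 1.17 higher, EP300 being 0.92 higher with normexp. TLE4, a Groucho-type corepressor through which HES proteins act, lay at 9.02, 9.14 and 9.06 on the other 3 arrays and at 11.99 with non-specific stapled-peptide at 48 h, 2.93 higher, and 1.76 higher at its other probe. MAML2, a coactivator of the mastermind family, was dim on the same array, with a bound of −2.17, or −0.72 with normexp. TLE2, another Groucho-type corepressor, was at −1.20, and without normalization at −0.90, within 2-fold. TLE3 was just inside 2-fold at 0.99, and at 1.05 with scaling to the 75th percentile.

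The HES and HEY family was measured whole, at 10 genes. At 48 h, 6 were at least 2-fold higher with non-specific stapled-peptide, 1 was lower, 2 were within 2-fold and 1, HES3, was dim. Of all genes, 21.2% were higher and 19.8% lower. Among the 6, HEY1, HEY2 and HEYL have bounds and enter only through the array on which they were bright. With normexp, HES1 and HEY2 were within 2-fold. HES4, a HES1 relative, lay at 11.29, 11.18 and 11.25 on the other 3 arrays and at 15.67 here, 4.42 higher. HES5, a repressor known from neural progenitors, lay at 4.58 and 4.43 with stapled-peptide at 24 h and 48 h and at 6.82 with the non-specific peptide at 48 h, 2.40 higher and 1.11 with normexp, having been dim at 3.63 with that peptide at 24 h.

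HEYL was not well above background on the other 3 arrays, at 1.90, 2.29 and 1.90, and lay at 7.60 with non-specific stapled-peptide at 48 h, at least 3.71 higher, or 1.71 with normexp. HES2 lay at 6.39 and 6.34 at 24 h and at 6.36 and 4.33 at 48 h, a difference of −2.02, or −0.70 with normexp. HES6, which counters HES1 and favours neural differentiation, was −0.21 at its brightest probe and 2.49, 3.16 and 2.46 at its other 3, so its direction depends on the probe taken.

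The promoters of these genes were set beside the values, because the intracellular part of Notch acts through the sites of RBPJ. Promoter sequences came from RefSeq (GRCh38.p14) and run from 250 bases before to 50 after the annotated start. The letters TGGGAA, the core of the RBPJ site, were searched on both strands and occur in 24.0% of all 35116 promoters, and more than once in 3.80%. The stretches below are shown because they hold the core in HES and HEY genes that were at least 2-fold higher. They are written 5′ to 3′ along the gene's own strand, with the core in capitals, as TTCCCA where it lies on the opposite strand. For HES1 (chr3:194135898-194136147, plus strand) and HEY2 (chr6:125749382-125749631, plus strand) the 250 bases before the start are given. For HES4 (chr1:1000148-1000207), HES5 (chr1:2530314-2530373) and HEYL (chr1:39639694-39639753), all on the minus strand, the 60 bases from 110 to 51 before the start are given.
HES1: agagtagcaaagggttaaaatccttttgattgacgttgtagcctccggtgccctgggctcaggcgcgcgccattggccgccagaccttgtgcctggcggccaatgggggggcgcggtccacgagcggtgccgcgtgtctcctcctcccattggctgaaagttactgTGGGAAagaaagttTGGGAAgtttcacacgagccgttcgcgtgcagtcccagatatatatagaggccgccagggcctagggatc
HEY2: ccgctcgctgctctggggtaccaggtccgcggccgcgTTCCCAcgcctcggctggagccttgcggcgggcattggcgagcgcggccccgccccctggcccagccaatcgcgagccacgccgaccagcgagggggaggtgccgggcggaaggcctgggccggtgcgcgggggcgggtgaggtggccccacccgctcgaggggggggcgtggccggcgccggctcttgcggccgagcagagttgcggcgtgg
HES4: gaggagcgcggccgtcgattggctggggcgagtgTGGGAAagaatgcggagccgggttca
HES5: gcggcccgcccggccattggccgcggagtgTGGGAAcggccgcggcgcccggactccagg
HEYL: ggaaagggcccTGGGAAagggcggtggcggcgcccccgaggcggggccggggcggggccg

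HES1 has a pair of cores on the same strand, with their first bases 84 and 70 before the start. HES4 has 1 at 76, HES5 1 at 80 and HEYL 1 at 99, all on the strand of the gene. HES5 and HEYL hold a further core on the opposite strand, at 224 and 178. HEY2 has 1 on the opposite strand at 213 and another whose first base lies 3 before the start and which runs past it. The table holds no entry for HEY1.

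Of the 9 HES and HEY promoters in the table, 6 held the core. Among these 6, HES1, HES4, HES5, HEY2 and HEYL were at least 2-fold higher at 48 h, though HES1 and HEY2 not with normexp, and HES3 was dim. HEY2 and HEYL had a difference only through the array on which they were bright. Among the 3 without it, 0 were higher, HES2 was lower, and HES6 and HES7 were within 2-fold, HES6 at its brightest probe only. The 5 receptor and ligand promoters in the table, those of NOTCH1, NOTCH2, NOTCH3, JAG1 and JAG2, held 0 cores, and DLL1 and DLL3 have no entry. Of all genes, 21.2% were at least 2-fold higher and 19.8% lower, and these shares were not taken by presence of the core. A match is a description of the letters in this window and does not show a bound site. Whether the core had a part in the differences was not tested.

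**Figure D4:**
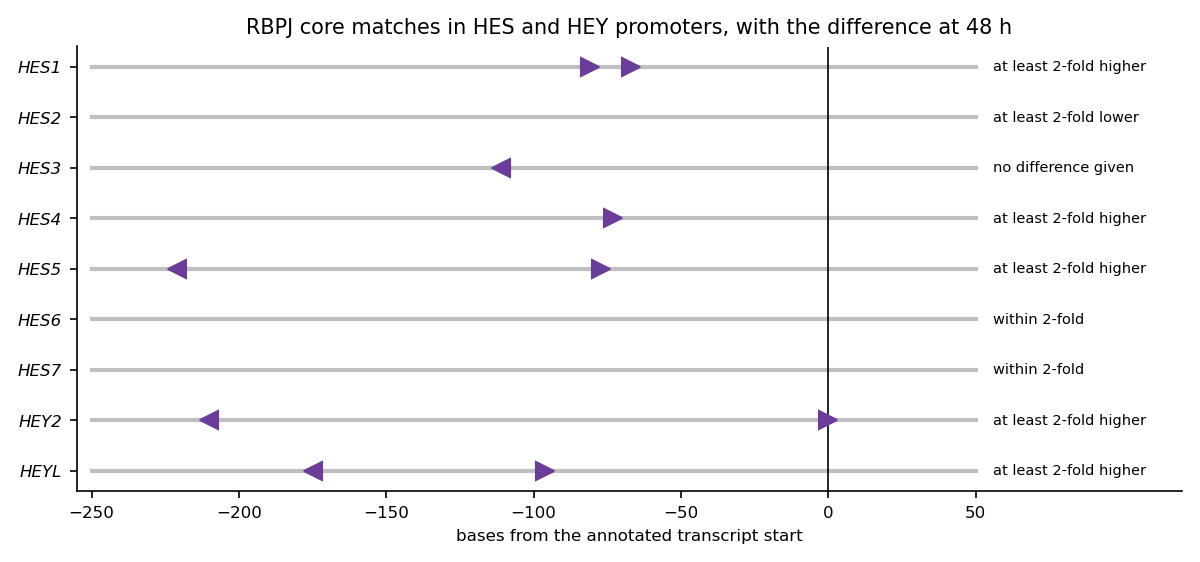
Position of the RBPJ core (TGGGAA) in 9 promoters of the HES and HEY family, in bases from the annotated transcript start; right-pointing triangles are matches on the strand of the gene and left-pointing ones on the opposite strand, and the text at the right gives the difference at 48 h. The 5 genes shown as at least 2-fold higher hold a core, and HES2, HES6 and HES7 hold 0. HES6 is within 2-fold at its brightest probe and 2.46 to 3.16 higher at its other 3. HEY2 and HEYL have bounds, HES1 and HEY2 are within 2-fold with normexp, and HEY1 has no promoter entry. A part of the core in the differences was not tested.

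The sites to which HES and HEY proteins bind were searched too. The N-box CACNAG occurs in 38.0% of all promoters and was present in those of HES1, HES2, HES3, HES7, NOTCH1, NOTCH2 and NOTCH3. HES1 held 4, at 165, 132 and 58 bases before the start and at base 16 after it. The E-box CACGTG, present in 7.26% of promoters, was found in 0 of the 14 searched.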

How the data were processed

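RNA labelled as MCF-10A was measured on 4 arrays of 1 slide in 1 scan, at 1 array per peptide and time. Per the file headers, the deposited intensity values are background-subtracted linear spot signals that the authors made with Agilent Feature Extraction 10.7.1.1, whereas the submitters' processing notes name version 9.5, and they were not normalized between arrays. Control spots and spots marked as outliers (343 to 438 per array) were left out, log2 signals were averaged by probe and quantile-normalized as the study's methods state, and 50590 of 50599 probes remained, of which 60.1 to 63.5% per array were well above background. No spot of an array was saturated. Replicate spots had a median coefficient of variation of 4.84 to 5.39%. The number of arrays limits the precision.

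RefSeq accessions named 28174 probes (55.7%). A gene takes the value of the probe brightest on average over the arrays, and genes were counted from 2-fold. The genes named are the 10 and each pathway gene past 2-fold at 48 h, with a few others chosen after their values were seen. Some genes of the lists enter the counts and are not reported here by name. The genes, lists and motifs were chosen with earlier results of these data known. The steps were tested on simulated data, the limma fit with shifts at both times only. The alternatives tried were no normalization, scaling to the 75th percentile, normexp with an offset of 50, no bounds, leaving out probes dim on either array, outlier-marked spots kept, the authors' combined table, the mean over probes and a 4-fold threshold. Python 3.11.15 with numpy 2.4.6, pandas 2.3.3 and matplotlib 3.10.9 and limma 3.58.1 in R 4.3.3 were used, with a limma fit of peptide plus time over probes well above background on at least 1 array, added after the data were seen.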

Additional observations from a re-analysis of the deposited data

Results flagged for a closer look

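For NOTCH2, NOTCH3 and JAG1 the arrays ran opposite ways at the 2 times. With non-specific stapled-peptide minus stapled-peptide, NOTCH2 was 0.15 at 24 h and −1.56 at 48 h, NOTCH3 was −0.19 at 24 h and 4.0 at 48 h, and JAG1 was 0.15 at 24 h and −3.40 at 48 h. With normexp NOTCH3 was 0.0094 at 24 h, so that its direction there turns. The 24 h values lie within 0.43, the SD of all probes' differences at that time. The difference between the times was not tested, since each value comes from 1 array per condition.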

How the results depend on the processing

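A count is taken to hold within 1.5 times its value, and a median or a gene's value within 0.43, the SD of all probes' differences at 24 h. By this the counts and medians at 24 h and those of stapled-peptide over time held under every alternative run. At 48 h between the peptides, 22 of 26 held, among them 5 higher genes with normexp (without HES1 and HEY2), 5 at 4-fold and 3 lower genes with the mean over probes, NOTCH1 being added. Of the rest, the median of 1.99 became 1.098 with normexp and 1.17 without probes dim on either array, which also took the higher genes from 7 to 4, and a 4-fold threshold took the lower genes from 2 to 1. For non-specific stapled-peptide over time 23 of 26 held: the median of 1.91 became 1.07 with normexp and 1.48 without probes dim on either array, and the lower genes went to 1 at 4-fold. No value of the 10 genes changed direction at 48 h, with 66 of 77 values within 0.43 of the main one and 11 beyond it, 8 of them with normexp. HES6 reversed to 1.97 with the mean over probes. Under other scalings the share of higher among changed probes at 48 h was 44.7% (75th percentile) and 63.2% (no normalization) against 51.4%, and the median of all probes moved from −0.02 to −0.14 and 0.20. For non-specific stapled-peptide over time that share was 38.9% at the 75th percentile against 51.7%, and for stapled-peptide it was 31.7% at the 75th percentile and 15.7% without normalization against 46.3%. The causes were not tested. Signal over background limited DLL3, HEY1 and HEY2 to bounds. With the peptides paired by time as a replicate block (limma, chosen after seeing the data), 0 of the 10 genes had an adjusted p under 0.05. That fit could hardly call a difference present at 48 h alone.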

Other observations

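Other genes known as Notch targets and the proneural genes that HES proteins repress were also on the array. CCND1, which encodes the cell cycle regulator cyclin D1, lay at 10.32 and 10.38 at 24 h and at 10.25 and 6.09 at 48 h, a difference of −4.15, or 17.8-fold lower with non-specific stapled-peptide, and −3.28 with normexp. MYC and GATA3 were within 2-fold, at 0.29 and −0.31. DTX1, another Notch target, was not well above background.

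Of 9 proneural genes, which encode transcription factors that drive neural differentiation, 4 had a difference at 48 h. Among these 4, 1 was at least 2-fold higher and 0 lower, beside 21.2% and 19.8% of all genes. The higher gene was NEUROG2, which had a difference only through the array on which it was bright. It was dim on the other 3 arrays, at 3.14, 3.72 and 3.25, and lay at 5.32 with non-specific stapled-peptide at 48 h, at least 1.43 higher, or 0.54 with normexp. ATOH1, NEUROD1, NEUROD2 and NEUROD4 had no difference, and NEUROG1 and NEUROG3 were at −0.63 and −0.70, and ASCL2 had a bound of −0.29. With stapled-peptide between the times, NEUROG1 was the pathway gene past 2-fold, at −1.10.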
